A study of Mus musculus with 8 samples.

Results

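Sinusoidal endothelial genes were examined in mouse liver as a set of 10 genes, namely the scavenger receptor genes Stab1 and Stab2, the lectin gene Clec4g, the immunoglobulin receptor gene Fcgr2b, the secreted-protein genes Oit3, Dnase1l3 and Bmp2, the growth factor receptor genes Kdr and Flt4, and the thrombin receptor gene F2r. They were picked by symbol from 19935 genes measured on Affymetrix arrays, with earlier results of the same NS-DADm against WT comparison known, and all 10 were measured. The study has 4 NS-DADm liver samples and 4 wild type (WT) liver samples, 1 array each. NS-DADm mice have a mutated deacetylase-activating domain (DAD) in NCOR and in SMRT, both nuclear receptor corepressors, and that domain is the part of each protein that binds the histone deacetylase HDAC3 and switches on its enzyme activity. No mutation is named for WT mice. All samples came from male C57Bl/6 mice aged 10 to 12 weeks, on normal chow and a cycle of 12 h light and 12 h dark, with liver taken at zeitgeber time 10, that is 10 h after lights on. The labels do not say which cells carry the mutations, nor that each sample came from a separate animal, so every error and p here describes how far these samples scatter, and that scatter may be technical. Ncor and Smrt transcripts were not analysed here, and genotype was taken from the labels alone.

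Liver sinusoids are capillaries lined by a thin endothelium with open pores and no continuous basement membrane, so plasma reaches hepatocytes directly. The cells of this lining take up hyaluronan, modified lipoproteins, immune complexes and other waste from blood through scavenger receptors, lectins and Fc receptors. They also send signals to hepatocytes, among them bone morphogenetic proteins (BMPs), which set the production of the iron hormone hepcidin, and they depend on vascular endothelial growth factor (VEGF) from their neighbours. The arrays measured whole liver, in which hepatocytes give most of the RNA. A lower value of an endothelial gene can therefore come from fewer such cells or from less of its RNA per cell, and these cannot be told apart here.

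The proximal promoters of the members are shown as a description of their sequence. Any link between these sequences and the array values was not tested. RefSeq windows of the GRCm38.p6 build, from 250 bases before to 50 bases after the gene start, were at hand for 7 of the 10 members, and 4 of them are printed 5′ to 3′ in the direction of the gene. These are F2r (chr13:95618417-95618716, minus strand), Flt4 (chr11:49609429-49609728, plus strand), Stab2 (chr10:87007893-87008192, minus strand) and Clec4g (chr8:3720602-3720901, minus strand). Capitals mark matches on either strand to any of 5 short motifs. GGGCGG is the GC box bound by Sp1-type factors. AGGAAG is the core site of the ETS family, to which several endothelial regulators belong. TGANTCA is the site of the Fos and Jun factors, called AP-1. AGATAA is the core bound by GATA factors such as the endothelial Gata4 protein. TATAAA is the TATA box of some core promoters.
F2r: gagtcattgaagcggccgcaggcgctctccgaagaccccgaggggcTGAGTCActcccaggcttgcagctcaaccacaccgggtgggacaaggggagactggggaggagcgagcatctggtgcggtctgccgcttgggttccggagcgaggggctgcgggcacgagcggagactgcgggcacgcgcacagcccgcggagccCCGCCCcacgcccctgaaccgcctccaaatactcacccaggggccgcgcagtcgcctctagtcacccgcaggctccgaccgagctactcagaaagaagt
Flt4: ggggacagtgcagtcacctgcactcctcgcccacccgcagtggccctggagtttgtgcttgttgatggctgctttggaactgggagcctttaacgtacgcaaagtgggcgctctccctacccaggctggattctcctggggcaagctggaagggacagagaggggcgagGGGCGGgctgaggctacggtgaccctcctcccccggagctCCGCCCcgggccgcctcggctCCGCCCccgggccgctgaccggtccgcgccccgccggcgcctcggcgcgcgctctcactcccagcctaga
Stab2: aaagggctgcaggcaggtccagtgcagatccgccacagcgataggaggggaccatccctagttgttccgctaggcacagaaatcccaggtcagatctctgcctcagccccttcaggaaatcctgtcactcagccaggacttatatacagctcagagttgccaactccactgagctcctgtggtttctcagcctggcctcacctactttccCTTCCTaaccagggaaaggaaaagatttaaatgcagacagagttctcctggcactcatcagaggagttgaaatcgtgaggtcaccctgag
Clec4g: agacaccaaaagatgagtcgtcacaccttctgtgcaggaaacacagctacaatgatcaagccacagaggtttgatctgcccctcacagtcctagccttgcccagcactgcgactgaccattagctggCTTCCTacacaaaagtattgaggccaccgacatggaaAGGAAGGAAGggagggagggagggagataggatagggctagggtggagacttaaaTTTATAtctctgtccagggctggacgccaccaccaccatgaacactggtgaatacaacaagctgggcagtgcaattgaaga

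The windows of Kdr, Flt4 and F2r were rich in CpG dinucleotides, with 19, 26 and 28 of them, and each held the GC box. The windows of Stab1, Stab2 and Clec4g held 7, 4 and 4 CpG dinucleotides, had no GC box, and each held the ETS core. The median over 32841 mouse promoter windows was 7 CpG dinucleotides. The GC box occurred in 35.7% of those windows and the ETS core in 35.4%, so a match in 3 of 7 members is near what any promoters hold. Clec4g had 3 ETS core matches, of which a pair overlap each other, and 1 TATA box on the opposite strand. The window of F2r alone among the 7 held an AP-1 site (7.81% of all windows), and no member held the GATA core (11.2%). The window of Fcgr2b matched none of the 5 motifs. These matches describe letters in a window, and binding was not measured.

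All 10 genes had lower means in NS-DADm livers than in WT livers, with log2 differences from -0.71 (F2r) to -0.23 (Stab1) and a median of -0.32, while the median over all 19935 genes was -0.01. The 4 arrays of NS-DADm lay below the 4 of WT for F2r, Dnase1l3, Clec4g and Fcgr2b, and overlapped them for the other 6 genes. Two-sided limma tests with Benjamini-Hochberg adjustment over all genes at a threshold of 0.05 called 2 of the 10, F2r and Dnase1l3, as lower, against 0.11% of all genes called lower and 0.271% called in either direction. Groups that did not overlap, with NS-DADm below, were seen for 3.83% of all genes, and groups apart in either direction for 5.63%. Because the members were chosen with this comparison known, these differences are a description and nothing is read from the counts. Dnase1l3 was no longer called, leaving a count of 1, without NS-DADm replicate 2, without any 1 of the 4 WT replicates, or after subtraction of array medians. Without NS-DADm replicate 4 the count was 4, with Kdr and Flt4 added, while called genes in all numbered 126 (67 lower) without that array, against 54 (22 lower) with it.

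**Figure D1:**
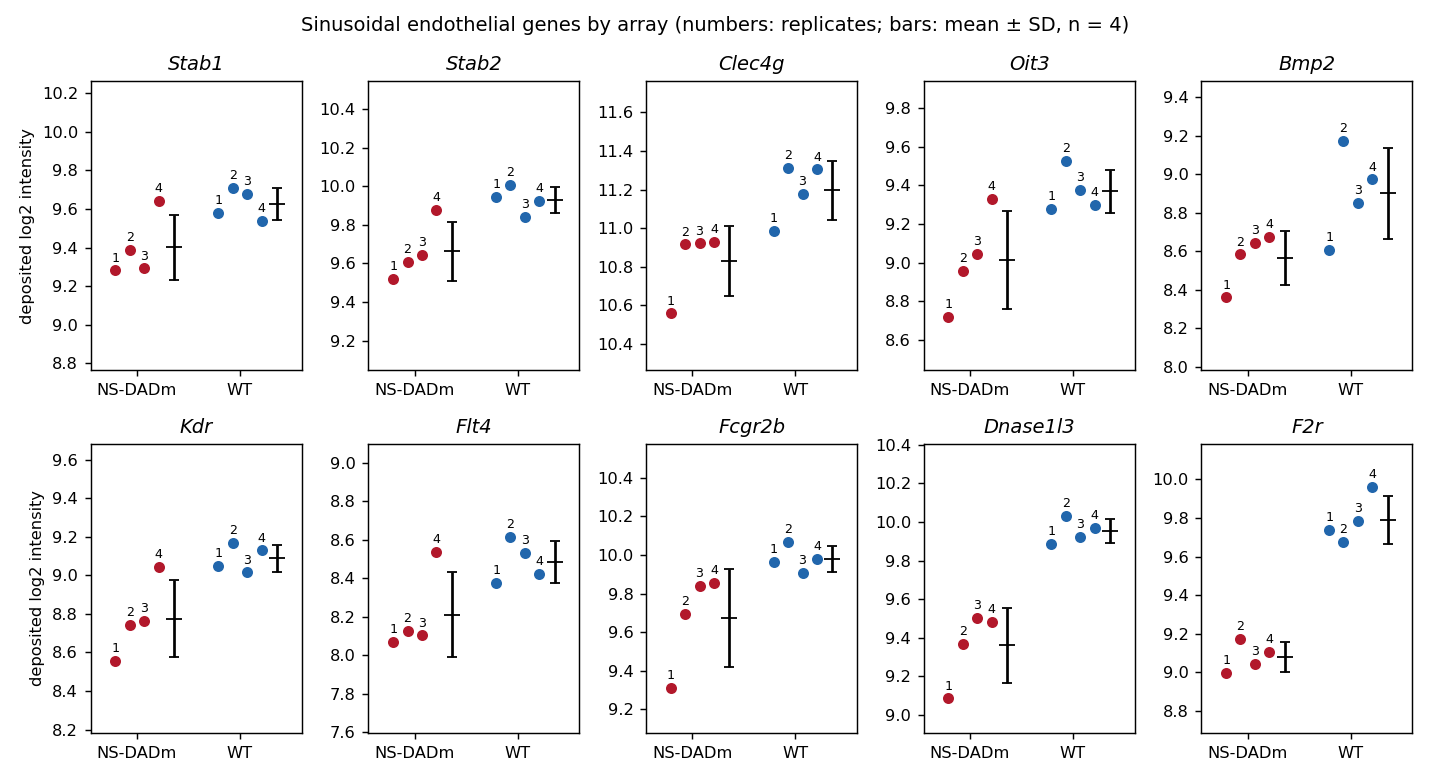
Deposited log2 intensity (vertical axis) of the 10 sinusoidal endothelial genes on each array of NS-DADm (left, red) and WT (right, blue) livers, with replicate numbers above the points and mean ± SD (n = 4) as bars, each panel spanning the same log2 range. NS-DADm replicate 1 is the lowest NS-DADm array in all 10 panels, and the groups are farthest apart for F2r.

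F2r encodes the thrombin receptor of the protease-activated family, a G protein-coupled receptor of endothelial and stellate cells that thrombin switches on by cutting its N-terminus. Its log2 intensity was 8.998, 9.17, 9.04 and 9.10 in NS-DADm replicates 1 to 4, against 9.74, 9.67, 9.79 and 9.96 in WT replicates 1 to 4. The gap between the groups, 0.50 from the highest NS-DADm to the lowest WT array, exceeded the range within either group (0.18 in NS-DADm and 0.29 in WT). The means were 9.08 ± 0.08 in NS-DADm and 9.79 ± 0.12 in WT livers (SD, n = 4 each), a log2 difference of -0.71 (SE 0.07, 95% confidence interval -0.87 to -0.55), or 0.611 times the WT level if the values are log2 as they appear. F2r had the smallest NS-DADm spread of the 10 genes.

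Of the other thrombin pathway and protease-activated receptor genes, 7 of 9 were measured and none passed the test in either direction. Their differences ran from -0.16 for Tfpi, the inhibitor of the tissue factor pathway, to 0.08 for Procr, the endothelial protein C receptor. Neither the receptor relatives F2rl2 and F2rl3 nor the thrombin precursor gene F2 was called.

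Dnase1l3 encodes a secreted nuclease that digests DNA in chromatin and in particles shed from dying cells. Its values were 9.09, 9.37, 9.50 and 9.48 in NS-DADm replicates 1 to 4, against 9.89, 10.03, 9.92 and 9.97 in WT replicates 1 to 4. The WT arrays lay within 0.14 of each other, all above every NS-DADm array. The means were 9.36 ± 0.19 in NS-DADm and 9.95 ± 0.06 in WT livers, a difference of -0.59 (SE 0.09, interval -0.79 to -0.40). Of 8 other DNase genes none passed the test in either direction, and their median difference was -0.03. The farthest from 0 were Dnase2b (0.13, adjusted p = 0.731) and Dnase2a (-0.06, adjusted p = 0.937), which encode acid DNases of lysosomes or secretions.

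The scavenger receptors of the sinusoid showed smaller differences. Stab2, the main receptor for clearing hyaluronan from blood, was at 9.52, 9.61, 9.65 and 9.88 in NS-DADm replicates 1 to 4, against 9.94, 10.01, 9.84 and 9.92 in WT replicates 1 to 4. NS-DADm replicate 4 lay inside the WT range, and the other NS-DADm arrays lay below it. Stab1, its paralog, was at 9.28, 9.39, 9.29 and 9.64 in NS-DADm livers and at 9.58, 9.71, 9.68 and 9.54 in WT livers, again with NS-DADm replicate 4 among the WT arrays. The differences were -0.26 (SE 0.08) for Stab2 and -0.23 (SE 0.08) for Stab1. The distance of Stab2 from Stab1 on the same array averaged 0.26 ± 0.06 in NS-DADm and 0.30 ± 0.10 in WT livers, so the pair kept its distance within the spread between arrays. Among 12 scavenger receptor genes outside the members none passed the test. The 2 farthest from 0 were Mrc1, the mannose receptor (-0.32, adjusted p = 0.608), and Cd163, the haptoglobin-haemoglobin receptor (-0.29, adjusted p = 0.615).

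Clec4g encodes a C-type lectin that binds sugar chains on pathogens and on activated T cells. It was at 10.56, 10.92, 10.92 and 10.93 in NS-DADm replicates 1 to 4, against 10.99, 11.31, 11.18 and 11.30 in WT replicates 1 to 4. The groups did not overlap, but the gap of 0.06 was small beside the range within them, 0.37 in NS-DADm and 0.33 in WT. The difference was -0.36 (SE 0.10). Clec4g was the 1 member with a second probe set, annotated through a single cDNA clone, which lay between 6.24 and 6.45 on all 8 arrays and differed by 0.07 (SE 0.06). The mean of both probe sets differed by -0.15.

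Fcgr2b encodes the inhibitory Fc gamma receptor, which in mouse liver sits mainly on sinusoidal endothelium and takes up small immune complexes. Its values were 9.31, 9.69, 9.84 and 9.85 in NS-DADm livers and 9.96, 10.07, 9.91 and 9.98 in WT livers. NS-DADm replicate 1 stood low, and without it the difference moved to -0.18 from -0.31 (SE 0.11) over all arrays. Of 5 measured partners and relatives none passed the test, and 4 had values above 0. The largest were the macrophage receptor genes Fcgr4 (0.28, adjusted p = 0.850) and Fcgr1 (0.17, adjusted p = 0.670).

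Oit3 encodes a secreted protein with a zona pellucida domain that marks sinusoidal endothelium. Its values were 8.72, 8.96, 9.05 and 9.33 in NS-DADm replicates 1 to 4, the widest NS-DADm range of the 10 genes, against 9.28, 9.53, 9.38 and 9.30 in WT replicates 1 to 4. NS-DADm replicate 4 alone overlapped WT, and the difference was -0.36 (SE 0.11).

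Kdr, the main endothelial receptor for VEGF-A, was at 8.56, 8.74, 8.76 and 9.04 in NS-DADm livers and at 9.05, 9.17, 9.02 and 9.13 in WT livers. Flt4, the receptor for VEGF-C, was at 8.07, 8.13, 8.10 and 8.54 in NS-DADm livers and at 8.37, 8.61, 8.53 and 8.42 in WT livers. In both receptors NS-DADm replicate 4 lay among the WT arrays and the other NS-DADm arrays lay below them. The differences were -0.31 (SE 0.09) for Kdr and -0.28 (SE 0.10) for Flt4. Of 8 VEGF ligand and co-receptor genes none passed the test. Nrp2, a co-receptor of Flt4, was at -0.21 (adjusted p = 0.292) with groups that did not overlap, and the decoy receptor gene Flt1 was at -0.17 (adjusted p = 0.485).

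Bmp2 is one of the BMP ligands that sinusoidal endothelium sends to hepatocytes. Its values were 8.36, 8.58, 8.64 and 8.67 in NS-DADm replicates 1 to 4, against 8.61, 9.17, 8.85 and 8.97 in WT replicates 1 to 4. WT replicate 1 lay inside the NS-DADm range, and Bmp2 had the widest WT range of the 10 genes, 0.565. The difference was -0.33 (SE 0.11). Bmp6, the other main endothelial BMP ligand, was at 8.25, 8.33, 8.41 and 8.50 in NS-DADm livers and at 8.56, 8.57, 8.59 and 8.59 in WT livers. Those groups did not overlap, and the difference of -0.20 did not pass the test (adjusted p = 0.286). Bmp4 had a difference of -0.42, also with groups that did not overlap (adjusted p = 0.177).

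Of 23 other BMP pathway genes 1 passed the test, Hjv, which encodes the BMP co-receptor hemojuvelin of hepatocytes. Hjv rose, at 10.73 ± 0.12 in NS-DADm and 10.09 ± 0.07 in WT livers, a difference of 0.64 (SE 0.07, adjusted p = 0.00459). The median difference of the 23 was -0.01, with 13 below 0 and 10 above.

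Other genes of the same cells were set beside the members. Of 14 further sinusoidal endothelial genes 13 had lower means in NS-DADm livers, with a median difference of -0.23. Of the 14, 1 fell, the semaphorin receptor gene Plxnc1, at 8.41, 8.52, 8.61 and 8.51 in NS-DADm and 8.91, 9.04, 8.82 and 9.14 in WT livers (difference -0.46, SE 0.08, adjusted p = 0.0393). The call was lost without NS-DADm replicate 1, 2 or 3 (adjusted p = 0.108, 0.123 and 0.0696), without WT replicate 1, 2 or 4 (0.0772, 0.182 and 0.0634) and after subtraction of array medians (0.122). Ehd3, an endocytic recycling gene, was at -0.47 (adjusted p = 0.0919) and Gpr182, a receptor gene, at -0.47 (adjusted p = 0.381). Gata4, the transcription factor gene required for sinusoidal identity in mouse liver, was the exception in direction at 0.12 (adjusted p = 0.573). Without NS-DADm replicate 4 the list's median was -0.31 and 3 of the 14 were called lower. Without NS-DADm replicate 1 the median was -0.15 and none was called. Calls over all genes moved too, with 67 lower without replicate 4 and 12 without replicate 1, against 22 with all arrays.

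Genes shared by all endothelium were nearer to 0. All 19 pan-endothelial genes had differences below 0, from -0.39 (Ptprb, a receptor phosphatase, adjusted p = 0.112) to -0.02 (Cldn5), with a median of -0.13, and none passed the test, while 55.7% of all genes lay below 0. The junction genes Cdh5 and Pecam1 were at -0.22 and -0.04, and Eng, a TGF-beta co-receptor, was at -0.31 (adjusted p = 0.442). The 10 measured large-vessel endothelial genes had a median of 0.00, from -0.09 (Gja5) to 0.09 (Rspo3), and none passed the test. The 3 measured lymphatic genes, of which Prox1 is also a hepatocyte gene, lay between -0.15 (Prox1) and 0.06 (Mmrn1), none past the test. Both lists were dim, with 4 of 10 large-vessel and 1 of 3 lymphatic genes reaching a mean log2 intensity of 7.59, the middle gene's value. All 10 members and 18 of 19 pan-endothelial genes reached it. Whether low intensity kept the differences of the dim lists small was not tested, so large-vessel endothelium is not shown to be unchanged.

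**Figure D2:**
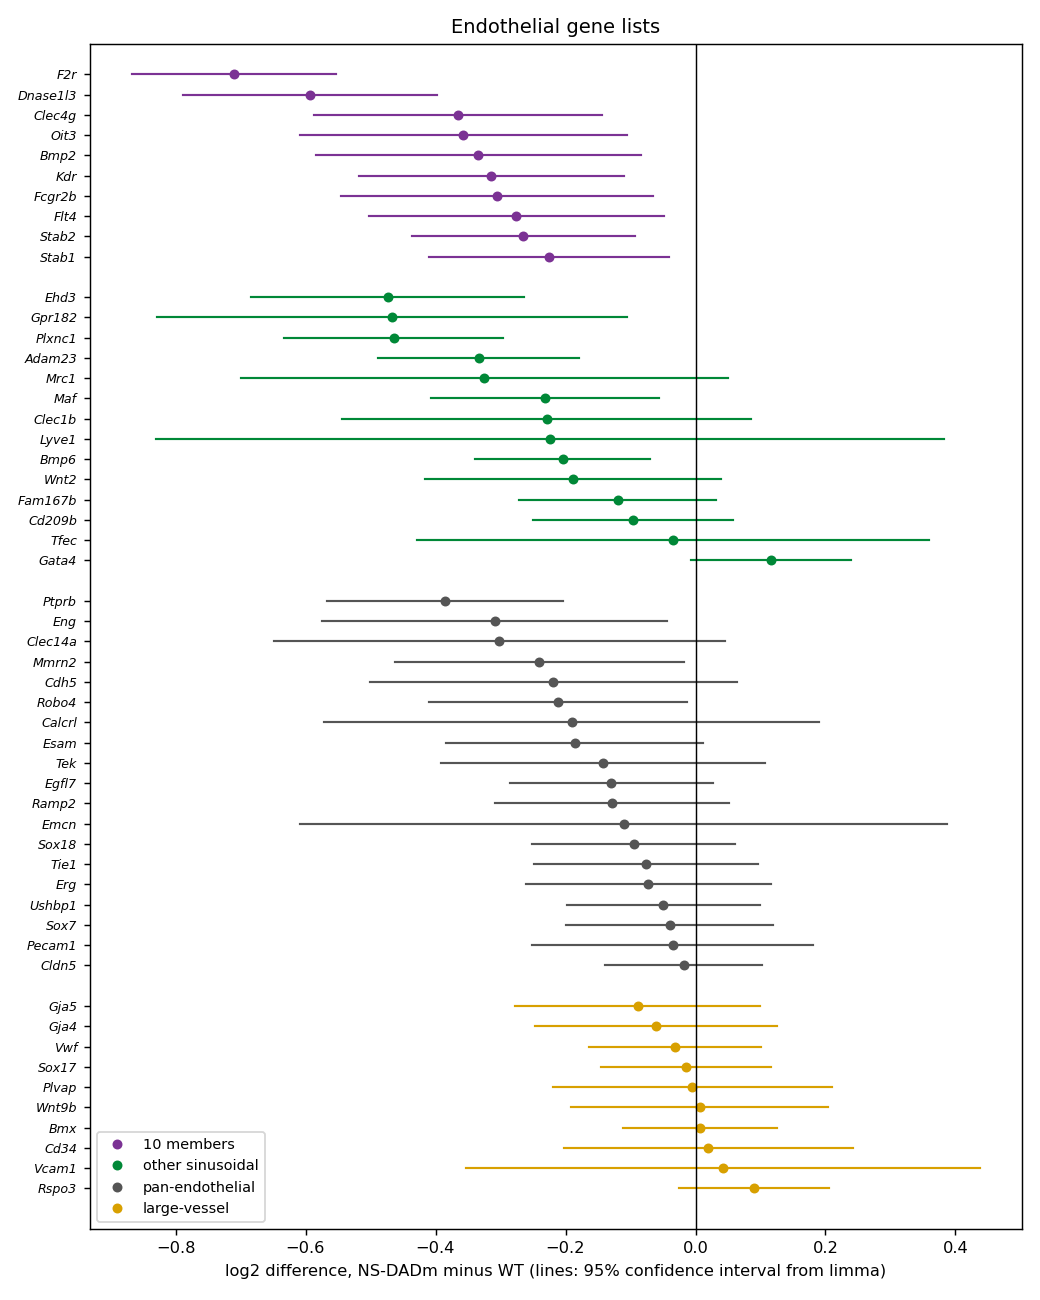
Log2 difference of NS-DADm minus WT (horizontal axis) for the 10 members and for 3 lists of other endothelial genes, with points as limma estimates and lines as 95% confidence intervals. The medians are -0.32 for the members, -0.23 for the other sinusoidal genes, -0.13 for the pan-endothelial genes and 0.00 for the large-vessel genes. Of the 10 large-vessel genes 4 reached a mean log2 intensity of 7.59, the middle gene's value, and the part of low intensity in their median was not tested. The members were chosen with this comparison known, so nothing is read from their place in this order.

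Most members shared an order of arrays. NS-DADm replicate 1 was the lowest NS-DADm array for all 10 genes, and replicate 4 the highest for 8 of them (Clec4g and Bmp2 included), the exceptions being Dnase1l3 (replicate 3) and F2r (replicate 2). Over all genes the lowest NS-DADm array was replicate 1 for 22.4% and the highest was replicate 4 for 24.2%. WT replicate 2 was the highest WT array for 9 of the 10 members, F2r again being the exception, against 19.7% of all genes. The mean of the 10 members was 9.05, 9.26, 9.28 and 9.45 in NS-DADm replicates 1 to 4 and 9.54, 9.73, 9.61 and 9.65 in WT replicates 1 to 4.

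To describe this co-variation apart from the group difference, each gene was expressed as its deviation from the mean of its group, and the 45 pairs of members were correlated over the 8 arrays. Pearson's r was above 0 in 43 pairs, with a median of 0.69. Among the 36 pairs without F2r it ran from 0.41 to 0.98, and Spearman's rho from 0.33 to 0.93. Among the 9 pairs with F2r it ran from -0.05 to 0.44, and rho from 0.00 to 0.26. With exact two-sided permutation of arrays within groups, whose smallest p is 0.00174, 17 of the 45 pairs had an unadjusted p below 0.05 for r, all of them among the 36 without F2r.

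After Benjamini-Hochberg adjustment over the 45 pairs 6 passed for r, each at an adjusted p of 0.0391, and none for rho, where the lowest adjusted p was 0.0521. Because the smallest possible p is limited by the number of arrays, no pair could have passed alone. The 6 were Stab1 with Flt4 (r = 0.97), Stab2 with Kdr (0.96), Clec4g with Bmp2 (0.90), Oit3 with Flt4 (0.89), Clec4g with Dnase1l3 (0.87) and Bmp2 with Dnase1l3 (0.74). Without the 2 arrays farthest from the median of the first gene, r was between 0.55 and 0.83 in these 6 pairs. Over the 36 pairs without F2r it then ran from -0.05 to 0.93. Leaving out the extreme arrays of 1 gene narrows its range and can itself lower r. A fall therefore does not show that a relation rested on 2 arrays. Stab1 with Stab2 had r = 0.78 over all arrays and -0.05 without the 2, and Stab1 with Kdr had 0.79 and 0.15. The strongest pair, Fcgr2b with Dnase1l3 (r = 0.98, rho = 0.93, and r = 0.93 without the 2 farthest arrays), missed the threshold (adjusted exact permutation p = 0.067). No pair passed after quantile normalization or with the mean of probe sets. None passed without any 1 array either, but there the smallest p of the test is 0.00694. At that limit only several pairs together could pass, so this count does not show that the relations were lost. Over all pairs the median r was 0.49 without NS-DADm replicate 1, 0.59 after quantile normalization and 0.75 after subtraction of array medians. In WT, the arrays with lower members on average (replicates 1 and 3) had array medians of 7.496 and 7.485, and the others (replicates 2 and 4) had 7.408 and 7.393. The part of array-wide intensity in this co-variation was not tested beyond those scalings.

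**Figure D3:**
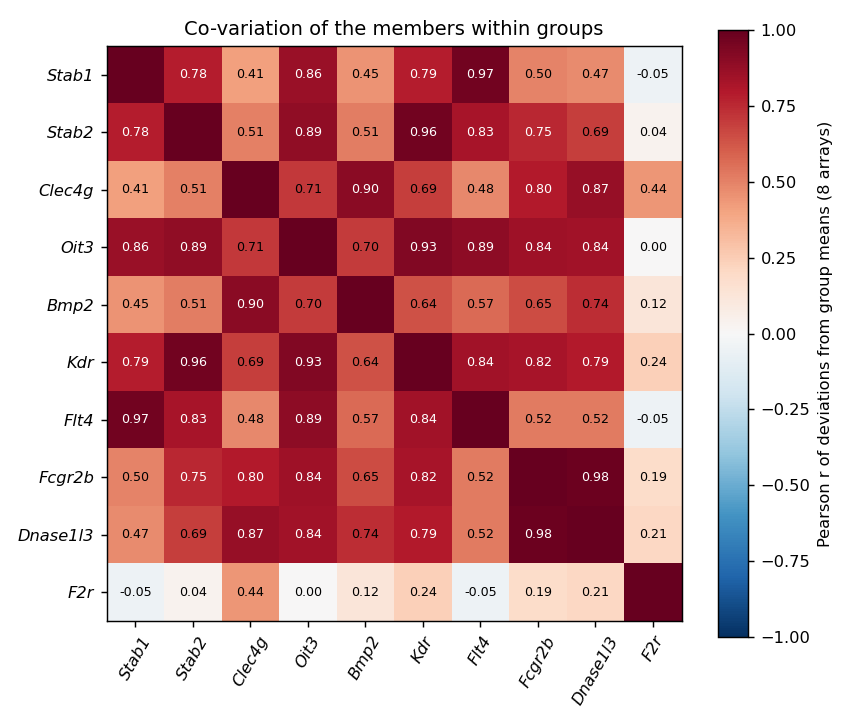
Pearson's r between members, computed over 8 arrays from deviations from group means, with red for positive and blue for negative values. The 36 pairs without F2r lie between 0.41 and 0.98, and the F2r row and column lie between -0.05 and 0.44.

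The array order within NS-DADm was seen to differing extents in lists of other cells. NS-DADm replicate 1 was the lowest NS-DADm array for 13 of 19 pan-endothelial, 9 of 12 stellate cell and 12 of 12 Kupffer cell genes, and replicate 4 the highest for 16, 12 and 11 of them. Replicate 1 was the lowest for 3 of 10 large-vessel, 0 of 3 lymphatic, 0 of 5 cholangiocyte, 1 of 8 neutrophil, 4 of 7 lymphocyte and 2 of 10 hepatocyte genes. In the same lists replicate 4 was the highest for 4, 1, 1, 4, 5 and 6 genes, so lymphocyte genes shared much of the order. The WT order was less shared, since WT replicate 2 was the highest WT array for 4 of 19 pan-endothelial, 5 of 12 stellate cell and 0 of 12 Kupffer cell genes. Among the 14 other sinusoidal endothelial genes, NS-DADm replicate 1 was the lowest NS-DADm array for 9 and replicate 4 the highest for 8. WT replicate 2 was the highest WT array for 3 of those 14. The mean of the pan-endothelial genes was 8.27, 8.45, 8.46 and 8.74 in NS-DADm replicates 1 to 4 and 8.59 to 8.68 in WT livers, so replicate 4 lay above all WT arrays and the other NS-DADm arrays below them. The mean of the stellate cell genes was 8.69 to 9.31 in NS-DADm and 8.999 to 9.18 in WT livers, and that of the Kupffer cell genes 8.58 to 9.59 in NS-DADm and 8.65 to 9.27 in WT livers. The mean of the 10 measured hepatocyte genes was 13.45 to 13.50 in NS-DADm and 13.47 in each WT array. These genes lay near the top of the scale. The lowest of them, Arg1, was at percentile 98.9 of all genes, and the highest values of the arrays were 14.26 to 14.37. Whether this narrowed their spread was not tested.

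Of these lists none had a gene past the test. Median differences were -0.05 for 12 stellate cell genes, 0.11 for 12 Kupffer cell genes, 0.01 for 10 hepatocyte genes and 0.01 for 5 cholangiocyte genes. They were 0.06 for 7 lymphocyte genes and 0.11 for 8 neutrophil genes. A mean log2 intensity of 7.59, the middle gene's value, was reached by 1 of 5 cholangiocyte, 0 of 7 lymphocyte and 0 of 8 neutrophil genes. Whether low intensity kept the differences of these 3 lists small was not tested. For the 2 measured of 6 erythroid genes the median was -0.20, and their mean was 8.76 to 9.01 in NS-DADm and 9.06 to 9.13 in WT livers, without overlap. Alas2, the haem synthesis enzyme of red cell precursors, was at -0.51 with groups apart (adjusted p = 0.0707), and Slc4a1, the red cell anion exchanger, was at 0.10 (adjusted p = 0.652). The stellate cell genes farthest from 0 were Ecm1 (-0.48, adjusted p = 0.452) and Reln (-0.35, adjusted p = 0.454), which stellate cells secrete. Among Kupffer cell genes they were the macrophage receptor genes Marco (0.28, adjusted p = 0.596) and Vsig4 (0.14, adjusted p = 0.968). Among hepatocyte genes they were Tat, an enzyme of tyrosine breakdown (-0.20, adjusted p = 0.427), and Fgb, a fibrinogen chain (0.07, adjusted p = 0.752), both with groups apart. In the cholangiocyte list they were Epcam (-0.09) and Sox9 (0.04), and in the lymphocyte list Nkg7 (0.30) and Ms4a1 (0.10). In the neutrophil list they were S100a9 (0.22, adjusted p = 0.345, groups apart) and Ly6g (0.19, adjusted p = 0.452). The part of liver cell makeup, red cell precursors included, in the members' differences was not tested.

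**Figure D4:**
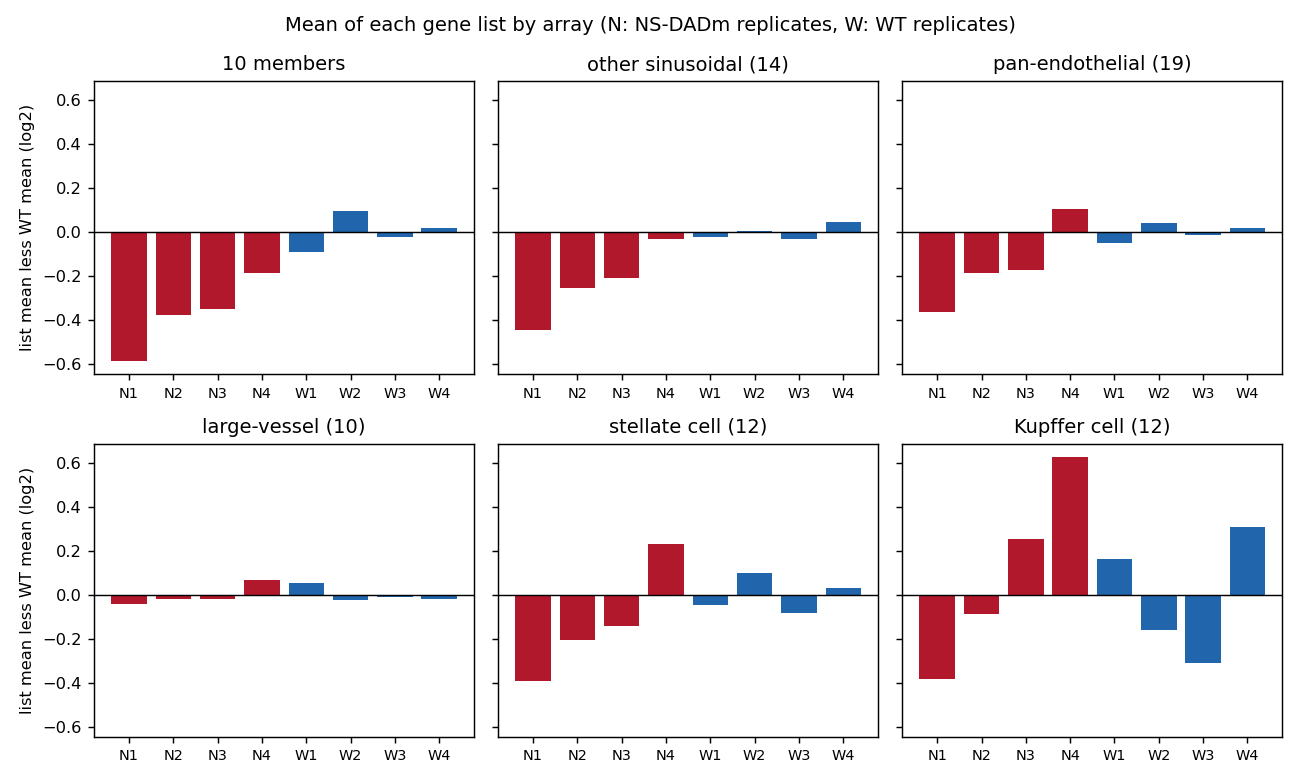
Mean log2 intensity of 6 gene lists on each array less the mean of the 4 WT arrays (vertical axis), with bars for NS-DADm replicates 1 to 4 (N1 to N4, red) and WT replicates 1 to 4 (W1 to W4, blue). All 4 NS-DADm bars of the 10 members lie below the WT bars, from -0.59 to -0.18. NS-DADm replicate 4 is above all WT arrays for the pan-endothelial, large-vessel, stellate cell and Kupffer cell genes.

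With the pan-endothelial mean of each array subtracted, a step chosen after seeing the data that shifts every member's group difference by the same amount, 4 members had groups that did not overlap. The share of all genes with such groups on this scale was not worked out, so nothing is read from that count. F2r stood at 0.72, 0.72, 0.58 and 0.36 above the pan-endothelial mean in NS-DADm replicates 1 to 4, against 1.15, 0.996, 1.16 and 1.30 in WT replicates 1 to 4, a difference of -0.56. Dnase1l3 stood at 0.81, 0.92, 1.04 and 0.74 above it in NS-DADm, against 1.30, 1.35, 1.30 and 1.31 in WT livers, a difference of -0.44. The groups did not overlap in either gene, before or after this step. NS-DADm replicate 4, where the subtracted mean was highest, was the lowest NS-DADm array on this scale for F2r and Dnase1l3 and also for Stab2, Clec4g and Bmp2.

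The other 8 genes differed by -0.07 (Stab1) to -0.21 (Clec4g) after this step, against -0.23 to -0.36 before it. Kdr, whose groups overlapped before this step, had groups apart after it, with 0.28, 0.29, 0.30 and 0.30 above the pan-endothelial mean in NS-DADm and 0.46, 0.49, 0.39 and 0.47 in WT livers. The same was seen for Oit3, at 0.44 to 0.59 in NS-DADm and 0.64 to 0.85 in WT livers. Clec4g and Fcgr2b, apart before the step, overlapped after it, as did Stab1, Stab2, Bmp2 and Flt4. No test was made on these values.

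**Figure D5:**
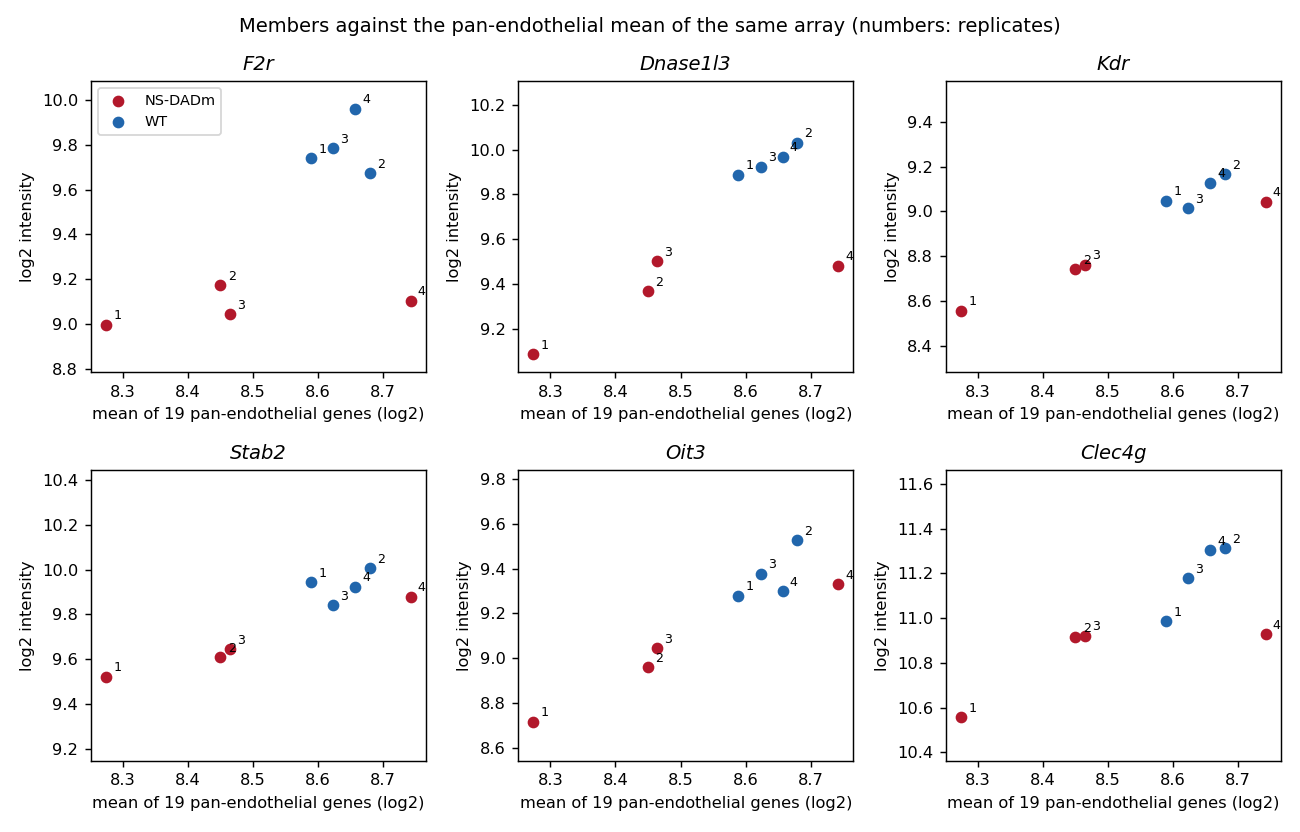
Log2 intensity of 6 members (vertical axis) against the mean log2 intensity of 19 pan-endothelial genes on the same array (horizontal axis), in NS-DADm (red) and WT (blue) arrays numbered by replicate. F2r, Dnase1l3 and Clec4g lie below every WT array in all 4 NS-DADm arrays, Clec4g by a small gap. In NS-DADm replicate 4, at a pan-endothelial mean of 8.74, Kdr, Stab2 and Oit3 lie within the WT range.

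Outside the members, the genes whose deviations from group means were most like the mean standardised deviation of the members over the 8 arrays were Phf7 (r = 0.98), Tfpi (0.98), Chst15 (0.98), Fyn (0.98), Col14a1 (0.98) and Inhbc (0.98). Of these Tfpi was on one of the lists, that of the thrombin pathway. Over all genes this r had a median of -0.15, and over the 14 other sinusoidal endothelial genes 0.76. The median was 0.85 over the 19 pan-endothelial genes, 0.88 over the 12 stellate cell genes, 0.65 over the 12 Kupffer cell genes and 0.16 over the 10 hepatocyte genes. It was -0.80 over the 5 cholangiocyte genes, -0.18 over the 7 thrombin pathway genes, -0.13 over the 8 neutrophil genes and -0.04 over the 10 large-vessel genes. Plxnc1, the called gene of the other sinusoidal list, had 0.46. F2r had 0.27, but it is itself part of the mean of the members, and against the mean of the other members it had 0.15. These values share arrays and scaling and are given as a description.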

How the data were processed

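Liver RNA of 8 samples was hybridised to Affymetrix arrays after Trizol and column extraction and biotin labelling of cDNA, per the labels' protocols. The deposited table held 28270 probe sets, made by the authors with RMA and with Partek per the submitters' processing notes, in an order and with parameters not given in the sources used here. A log2 intensity scale was assumed for the deposited values, since they ran from 3.43 to 14.37, with array medians of 7.39 to 7.50. Neither detection calls nor scan dates were used, and the number of arrays limits precision.

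Of the probe sets 21780 named 1 gene, 1617 several and 4873 none in the platform annotation. Symbols were updated by Entrez identifier through a RefSeq table on GRCm38.p6, and each of 19935 genes was represented by its probe set with the highest mean, without a low-value filter. Groups came from sample titles. NS-DADm was compared with WT by limma 3.58.1 (R 4.3.3, lmFit and eBayes, two-sided, Benjamini-Hochberg over all genes, threshold 0.05). Errors beside means are SDs over 4 arrays. Pair correlations used all 576 within-group pairings of arrays. In simulated NS-DADm against WT data with 200 of 19935 genes changed, 18.7% of genes shifted by 0.25 (log2) were recovered, 76.1% at 0.5 and 97.5% at 1, and 5.52% of calls were false. Each simulated gene was drawn independently, without the deviations that genes share on these arrays, so these rates may not hold for the deposited values. The pair test was also run on simulated data in which most genes shared a strong factor, scored before adjustment. Its outcome is not given here and nothing is read from it. The members, lists, motifs and tests were chosen with earlier results of these data known. In 17 lists of other genes, 165 of 179 entries were measured. Named were all members, called list genes, the 2 genes of each list farthest from 0 and the 6 closest in pattern; other list genes named were chosen after their values were seen. Alternatives were other probe set rules, normalizations, filters, variance models, the replicate number as a block and each array left out. Figures were made with matplotlib 3.10.9 in Python 3.11.15.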

Additional observations from a re-analysis of the deposited data

Results flagged for a closer look

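Clec4g on NS-DADm replicate 1, at 10.56 against 10.92 to 10.93 on the other NS-DADm arrays, and Flt4 on NS-DADm replicate 4, at 8.54 against 8.07 to 8.13 on the others, stood apart from the rest of their group by Dixon's test at the 95% level. The 10 genes and their mean were each examined in both groups, and chance puts about 1 in 20 such groups past this value. NS-DADm replicates 1 and 4 were also the lowest and the highest NS-DADm arrays of the members on average. No cause was tested.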

How the results depend on the processing

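The median difference of the members stayed between -0.39 and -0.25 under every processing alternative and with any 1 array left out. F2r was called under all of these. The count of called members was 2, but 1 after subtraction of array medians and 1 to 4 with 1 array left out. Called genes in all numbered 54, but 109 with array weights and 13 to 126 with 1 array left out. The replicate number as a block gave 105 called genes and 3 called members, with Clec4g added. Samples with the same number correlated in their deviations at 0.146, 0.048, -0.102 and 0.247 over genes. NS-DADm replicates 1 and 4 correlated best with the WT sample of their own number, and replicates 2 and 3 did not. Whether samples with the same number share more than that number was not tested. The 6 called pairs numbered 10 after subtraction of array medians and 0 after quantile normalization or with the mean of probe sets. They also numbered 0 with any 1 array left out. There the smallest p of the pair test is 0.00694 and only several pairs together could pass, so that count decides nothing. The cause of the other changes in this count was not tested. No member changed sign under any alternative.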
